A study of Sus scrofa with 6 samples.

Results

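Prostaglandins are short-lived lipid signals made from arachidonic acid, and the genes described here make them, carry them across membranes and break them down. The list holds 10 genes, chosen by name with earlier results of these data known. They are PTGS1, PTGS2, PTGES, PTGES2, PTGDS, PTGIS, CBR1, HPGD, SLCO2A1 and ABCC4. Of these, 9 had a row with their symbol in a table of 35670 pig genes, and 8 passed the filter on low counts and were tested. CBR1 had a row but did not pass the filter, and ABCC4 was not matched to a row by symbol and was not analysed here.

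The tissue was the oviduct ampulla of female pigs (Sus scrofa), the part of the tube where eggs are fertilised. RNA sequencing covered 3 post-ovulatory libraries and 3 early luteal libraries, the latter from the time when corpora lutea form. No treatment, allele or transgene is named for either group, and the sources used here give no breed, age or number of animals. P-values therefore measure the spread between these libraries, which may be technical.

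Cyclooxygenases turn arachidonic acid into prostaglandin H2, from which terminal synthases make prostaglandin E2, D2, prostacyclin and other forms. Prostaglandins leave cells partly through efflux pumps and are taken back up by the transporter SLCO2A1, after which the dehydrogenase HPGD inactivates them inside the cell. In the oviduct, prostaglandins are known for acting on the muscle layer and on the transport of gametes and embryos.

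Libraries held 7370723 to 30954222 counts. Levels below are CPM, counts divided by the library total and multiplied by 1e6, with totals scaled between libraries by the TMM method. A count of 3, used as the floor of a library, equals 0.0959 to 0.406 CPM. Early luteal replicate 2 stood apart, with a median correlation to the other libraries of 0.822 (Pearson, across genes), against 0.916 to 0.937 for the other 5. It also had the fewest genes with a count, 21658, from a total of 8342520 counts. Post-ovulatory replicate 2, with a total of 7370723, had 23373 such genes. The summed level of 9 ciliated cell markers ran from 1364 to 2660 CPM in post-ovulatory and from 1921 to 2057 CPM in early luteal libraries, and none of these markers was at 0 in any library. Early luteal replicate 2 was nonetheless the lowest library by mean centred log2 CPM of these markers (-0.48), with FOXJ1 at 79.3 CPM against 199.9 to 654 CPM in the other libraries and CFAP43 at 673 CPM. Of 9 secretory cell markers 7 had a row. They summed to 1800 to 12960 CPM in post-ovulatory and 2649 to 4283 CPM in early luteal libraries. MSX1 was at 0 in early luteal replicate 2 alone. OVGP1 stood at 7302, 156 and 10688 CPM in post-ovulatory replicates 1, 2 and 3. In early luteal replicates OVGP1 stood at 292, 1017 and 2356 CPM. EPCAM lay within 385 to 1093 CPM and CDH1 within 429 to 785 CPM. By estimate 3 of the 6 tested secretory markers were higher in early luteal tissue and 3 lower. In bulk tissue, fewer cells of a type and less RNA per cell cannot be told apart. Transcript lengths were not used here, so levels are compared between libraries and not between genes.

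The prostaglandin transporter gene SLCO2A1 stood lower in all 3 early luteal libraries than in any post-ovulatory one, and so did the prostaglandin E synthase gene PTGES2. The other 7 measured genes overlapped between the stages. By edgeR's quasi-likelihood test none of the 8 tested genes passed an adjusted p of 0.05 (Benjamini-Hochberg over all 17920 genes tested), as 0% of all genes did. At an unadjusted p under 0.05, edgeR counted 1 of the 8, SLCO2A1, where 7.11% of all genes (1275) were counted. DESeq2 called SLCO2A1 alone of the 8, where it called 177 genes in all (1.02% of those with an adjusted p), and limma voom with sample quality weights called none of the 8, where it called 9 genes in all (0.0502%). The stages did not overlap in 2 of the 8 genes, both lower, where 17.2% of all genes did not overlap in either direction and 9.57% did so with early luteal tissue lower. By the sign of the estimate 5 of the 8 were lower in early luteal tissue, against 51.8% of all genes, and the median log2 fold change (early luteal over post-ovulatory) was -0.27 against -0.03 over all genes.

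**Figure D1:**
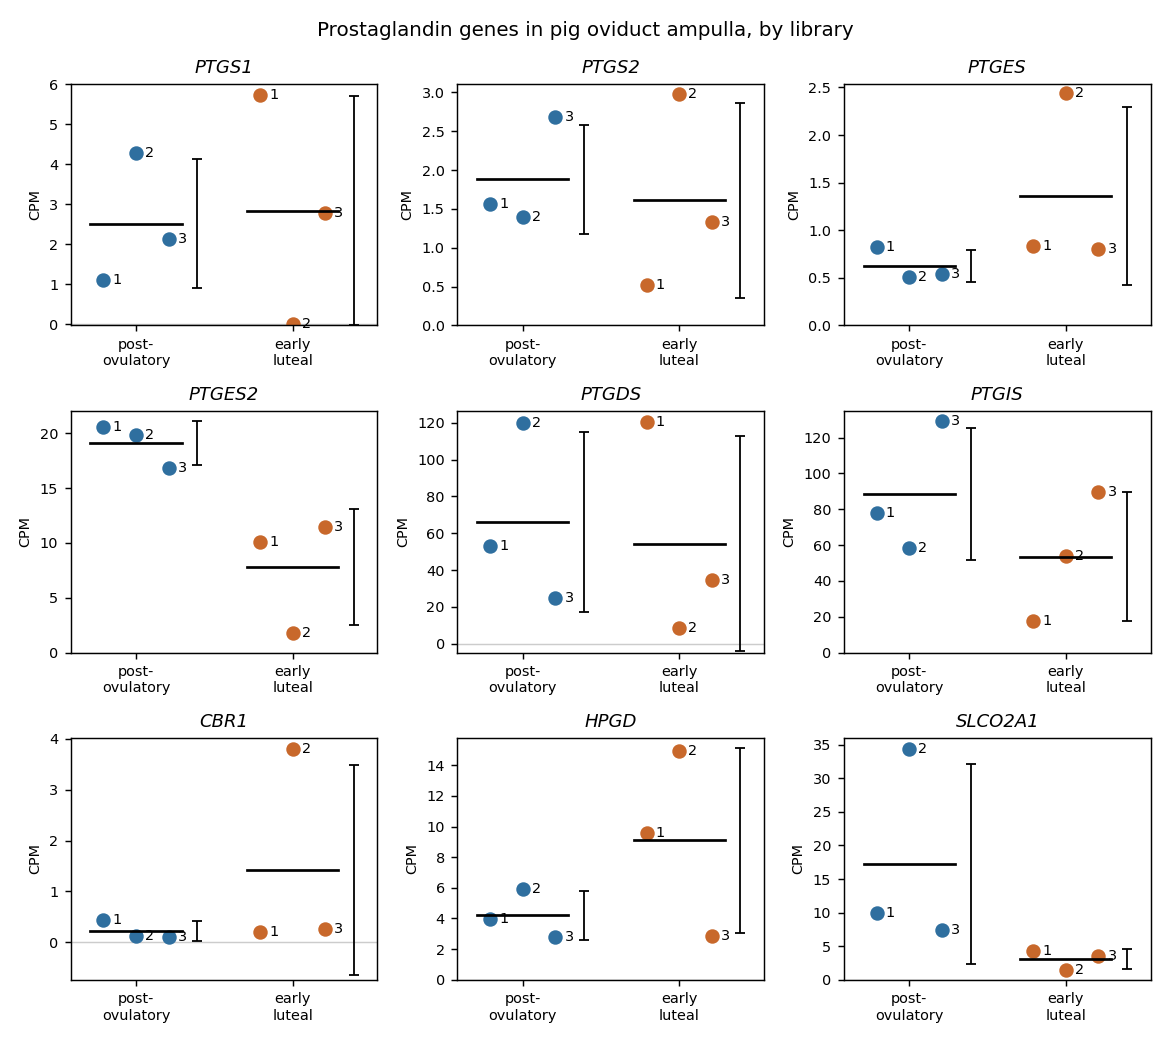
CPM of the 9 measured prostaglandin genes in each library (points, numbered by replicate; blue post-ovulatory, orange early luteal), with the mean of each stage as a line and the SD as a bar (n = 3); each panel has its own linear scale. The stages separate in SLCO2A1 and PTGES2 and overlap in the other 7, and early luteal replicate 2 is the highest or lowest library in 8 of the 9 panels.

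SLCO2A1 encodes the carrier that takes prostaglandins up through the plasma membrane, the step before their breakdown. It lies on chromosome 13 at 75108540 to 75189660 (RefSeq, Sscrofa11.1). It stood at 9.98, 34.4 and 7.48 CPM in post-ovulatory replicates 1, 2 and 3, from 134, 272 and 234 counts. In early luteal replicates 1, 2 and 3 it stood at 4.25, 1.49 and 3.52 CPM, from 66, 11 and 53 counts. All early luteal libraries were lower, and post-ovulatory replicate 2 was far above the rest of its stage. The closest libraries were also apart by counting error, with exact 95% Poisson intervals of 3.29 to 5.41 CPM in early luteal replicate 1 and 6.55 to 8.50 CPM in post-ovulatory replicate 3. Such intervals cover counting error only.

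The stage means of SLCO2A1 were 17.3 ± 14.8 CPM (SD, n = 3) and 3.09 ± 1.43 CPM (n = 3), a 5.48-fold lower fitted level in early luteal tissue. The log2 fold change was -2.46 ± 0.71 (SE), with a 95% interval from -4.09 to -0.82. In edgeR the unadjusted p was 0.00825 and the adjusted p 0.647, so the gene missed the threshold after adjustment. It passed in DESeq2 (log2 fold change -2.47, adjusted p = 0.0346), the lowest adjusted p over its 13 alternatives, which reached 0.985. The log2 fold change shrank to -1.50 without post-ovulatory replicate 2 (edgeR, unadjusted p = 0.0534) and to -1.43 with sample quality weights (limma voom, unadjusted p = 0.0704). Without early luteal replicate 2 it was -2.14 (edgeR, unadjusted p = 0.0248).

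Because SLCO2A1 is known from vascular endothelium, levels of endothelial and stromal markers are set beside it. Of 10 endothelial markers 9 had a row. Their summed level overlapped between the stages, from 374 to 604 CPM in post-ovulatory and from 409 to 572 CPM in early luteal libraries. CLDN5 was at 0 in early luteal replicate 2 alone. Of the 572 CPM in early luteal replicate 2, EMCN gave 434 CPM, and by mean centred log2 CPM of the 9 markers that library was the lowest of all (-1.24). FLT1 and PLVAP were lower in every early luteal library (log2 fold changes -1.58 and -1.52; edgeR adjusted p = 0.664 and 0.677), and EMCN was higher in every one. Of the 9 endothelial markers 2 were lower without overlap and 1 was higher without overlap. Of all genes 9.57% were lower without overlap, and 17.2% did not overlap in either direction. By estimate 7 of the 9 endothelial markers were lower in early luteal tissue, against 51.8% of all genes. The median log2 fold change of these markers was -0.57. The summed level of 9 stromal markers did not overlap, at 1615 to 3051 CPM in post-ovulatory libraries and 1218 to 1402 CPM in early luteal libraries, and none was at 0 in any library. All 9 stromal markers were lower by estimate, against 51.8% of all genes, with a median log2 fold change of -0.76. The stages did not overlap in 5 of these 9, all lower, where 9.57% of all genes were lower without overlap. DESeq2 called 2 of these 9, COL1A1 (adjusted p = 0.0071) and PI16 (adjusted p = 0.0314), where it called 1.02% of all genes with an adjusted p. It called 0 of the 9 endothelial markers, and edgeR called 0 in either list. Post-ovulatory replicate 2, the highest library for SLCO2A1, was also the highest for both marker sums. The part of these cell types in the SLCO2A1 difference was not tested.

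HPGD encodes the dehydrogenase that inactivates prostaglandins once they are inside a cell. It lies on chromosome 14 at 15718261 to 15773534, and a RefSeq pseudogene overlaps that span. It stood at 3.95, 5.94 and 2.78 CPM in post-ovulatory and at 9.60, 14.9 and 2.86 CPM in early luteal replicates 1, 2 and 3. Early luteal replicates 1 and 2 lay above every post-ovulatory library, while early luteal replicate 3 lay among them. The means were 4.22 ± 1.60 and 9.12 ± 6.04 CPM (SD, n = 3 each), and the difference was within the spread between libraries (log2 fold change 1.11 ± 0.67, SE; edgeR unadjusted p = 0.133, adjusted p = 0.736; 95% interval -0.42 to 2.65). Without early luteal replicate 3 the log2 fold change was 1.53 (edgeR, unadjusted p = 0.0351, adjusted p = 0.813), and without early luteal replicate 2 it was 0.57.

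HPGD and SLCO2A1 act in sequence, so their levels were also set against each other within each library. Without transcript lengths, only the differences between libraries of such a ratio can be read. The log2 ratio of HPGD over SLCO2A1 was -1.34, -2.53 and -1.43 in post-ovulatory libraries and 1.17, 3.32 and -0.30 in early luteal replicates 1, 2 and 3. Each early luteal library had the higher ratio, with stage means of -1.77 ± 0.67 and 1.40 ± 1.82 (SD, n = 3), a difference of 3.16 on the log2 scale. This is a description without a test, and it shares the SLCO2A1 counts given above. SLCO2A1 alone already separated the stages and HPGD alone did not, so the ratio is not a separate result. The ratios of HPGD over PTGS2, PTGES and PTGDS overlapped between the stages, with differences of 1.39, -0.07 and 1.62. The last of these came from early luteal replicate 2, at 0.85, while the other 5 libraries lay between -4.34 and -3.15.

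**Figure D2:**
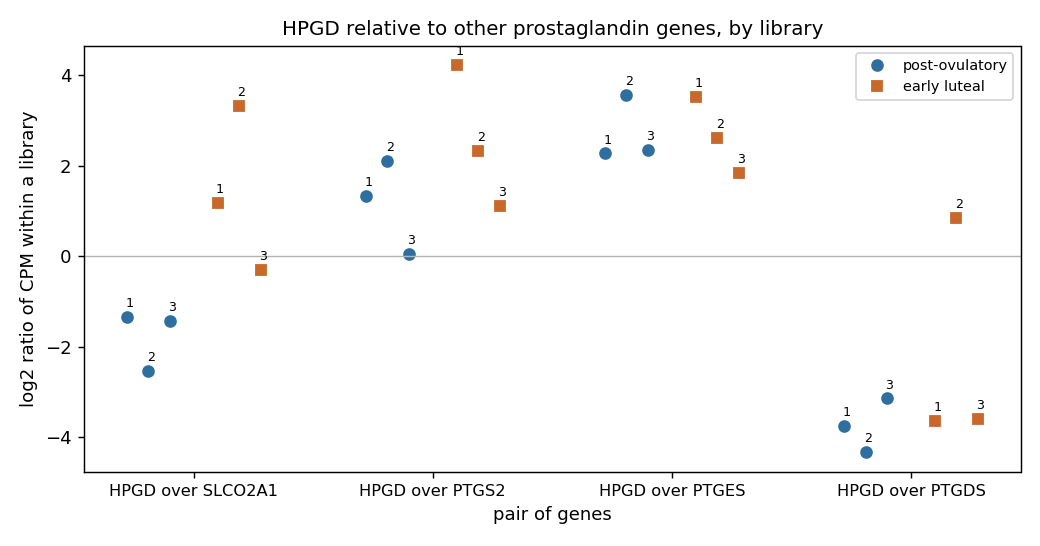
Log2 ratio of HPGD CPM over the CPM of SLCO2A1, PTGS2, PTGES and PTGDS within each library (circles post-ovulatory, squares early luteal, numbered by replicate). Only HPGD over SLCO2A1 separates the stages among these 4 ratios, with post-ovulatory libraries from -2.53 to -1.34 and early luteal libraries from -0.30 to 3.32. SLCO2A1 alone also separates the stages, and HPGD alone does not.

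The cyclooxygenases open the pathway, and neither separated the stages. PTGS1, the constitutive form, lies on chromosome 1 at 262456106 to 262482159. It stood at 1.12, 4.29 and 2.14 CPM in post-ovulatory and at 5.73, 0 and 2.79 CPM in early luteal replicates 1, 2 and 3. Early luteal replicate 2 had 0 counts of PTGS1, which by the floor of 3 counts allows up to 0.406 CPM and by the exact 95% Poisson interval up to 0.500 CPM, while early luteal replicate 1 was the highest of all 6. Its log2 fold change was 0.22 ± 1.16 (SE; edgeR adjusted p = 0.973), with a 95% interval from -2.44 to 2.87, and its sign turned without early luteal replicate 1 (-0.76), without post-ovulatory replicate 1 (-0.14) and in a fit with replicate number as block (-0.18).

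PTGS2, the inducible cyclooxygenase, lies on chromosome 9 at 127850164 to 127858866. Its RefSeq span shares 5286 bases with that of PLA2G4A, and as no source gives the strand setting of the counting, reads from the shared part are uncertain. PTGS2 stood at 1.56, 1.39 and 2.69 CPM in post-ovulatory and at 0.515, 2.98 and 1.33 CPM in early luteal replicates 1, 2 and 3, from 8 to 84 counts a library. Early luteal libraries were both the lowest and the highest. The log2 fold change was -0.27 ± 0.78 (SE; edgeR adjusted p = 0.945), with a 95% interval from -2.05 to 1.51. Without early luteal replicate 2 it was -1.04 (edgeR, unadjusted p = 0.175), and the 2 early luteal libraries left lay below all post-ovulatory ones, the closest being 1.33 and 1.39 CPM. It was above 0 without early luteal replicate 1 (0.18) and without post-ovulatory replicate 3 (0.11). The log2 ratio of PTGS1 over PTGS2 was -0.49, 1.63 and -0.33 in post-ovulatory replicates and 3.48 and 1.07 in early luteal replicates 1 and 3, and has no value in early luteal replicate 2.

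Immediate early genes respond to handling of the tissue, as PTGS2 can, and 10 of them summed to 389 to 1021 CPM in post-ovulatory libraries and 531 to 2059 CPM in early luteal libraries. Their highest library was early luteal replicate 3 and their lowest post-ovulatory replicate 3, which was the second highest for PTGS2. Early luteal replicate 2, the highest for PTGS2, was the second highest in their sum (1419 CPM). By mean centred log2 CPM, however, it stood at 0.25, below post-ovulatory replicate 2 at 0.29. Early luteal replicate 1, the lowest for PTGS2, was the second lowest in that sum (531 CPM). Their part in the PTGS2 values was not tested.

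The prostaglandin E synthases behaved unlike each other. PTGES2, a membrane-associated synthase of prostaglandin E2, lies on chromosome 1 at 268585725 to 268591356. It stood at 20.6, 19.8 and 16.8 CPM in post-ovulatory and at 10.1, 1.76 and 11.5 CPM in early luteal replicates 1, 2 and 3. Every early luteal library was lower, and early luteal replicate 2, with 13 counts, was far below the rest. By counting error the closest libraries were apart as well, with exact 95% Poisson intervals of 9.85 to 13.4 CPM in early luteal replicate 3 and 15.4 to 18.4 CPM in post-ovulatory replicate 3.

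The means of PTGES2 were 19.1 ± 1.99 and 7.79 ± 5.27 CPM (SD, n = 3 each). The log2 fold change was -1.28 ± 0.62 (SE), a 2.43-fold lower level that did not pass the test (edgeR, unadjusted p = 0.0710, adjusted p = 0.692; 95% interval -2.69 to 0.14). Without early luteal replicate 2 the difference was smaller and the p lower, at -0.82 (edgeR, unadjusted p = 0.0168, adjusted p = 0.586). With sample quality weights it was -0.78 (limma voom, unadjusted p = 0.0377, adjusted p = 0.324).

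PTGES, the inducible prostaglandin E synthase that is often paired with PTGS2, lies on chromosome 1 at 269911785 to 269924481. It stood at 0.819, 0.505 and 0.544 CPM in post-ovulatory and at 0.837, 2.44 and 0.798 CPM in early luteal replicates 1, 2 and 3, from 4 to 18 counts a library. Apart from early luteal replicate 2, all libraries lay within 0.505 to 0.837 CPM. The log2 fold change was 1.08 ± 0.78 (SE; edgeR adjusted p = 0.773), and it was 0.39 without early luteal replicate 2. PTGES did not pass a stricter filter of 1 CPM in 3 libraries.

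**Figure D3:**
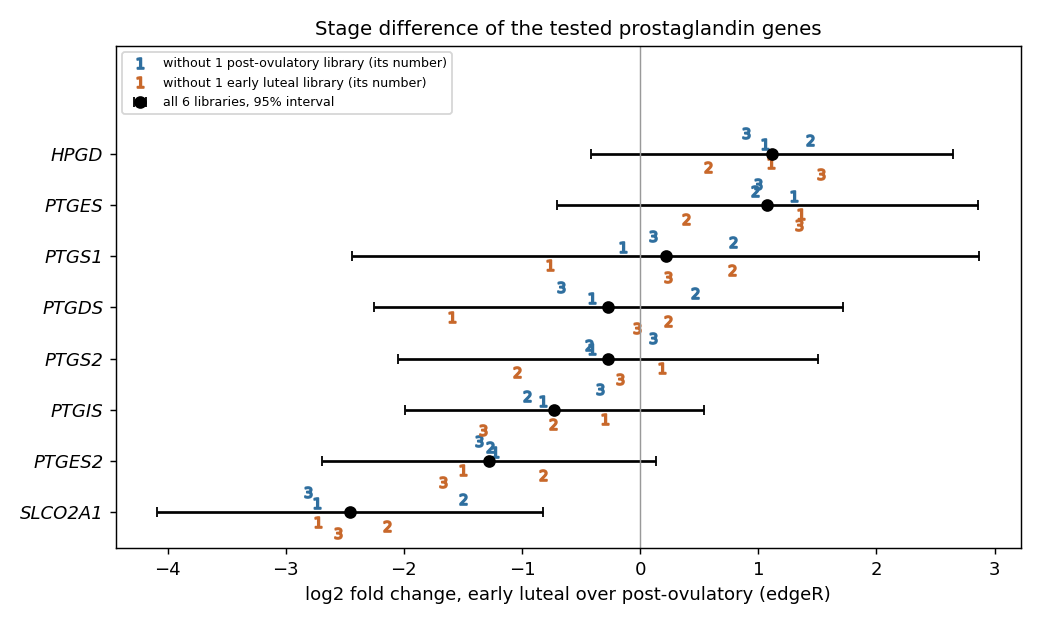
Log2 fold change, early luteal over post-ovulatory, of the 8 tested genes with all 6 libraries (black, with the 95% interval) and with 1 library left out (digits: the replicate left out; blue post-ovulatory, orange early luteal). SLCO2A1 (-4.09 to -0.82) has the only interval that does not reach 0, and PTGS1, PTGS2 and PTGDS have estimates on both sides of 0.

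PTGDS and PTGIS make prostaglandin D2 and prostacyclin. PTGDS, which is also a secreted carrier of lipophilic molecules, is placed by RefSeq on a sequence with no chromosome. It stood at 53.1, 120.0 and 24.7 CPM in post-ovulatory and at 120.3, 8.26 and 34.5 CPM in early luteal replicates 1, 2 and 3. Within each stage the levels differed several-fold, and the highest library of each stage reached about the same level. Between the stages the log2 fold change was -0.27 ± 0.87 (SE; edgeR adjusted p = 0.951), with a 95% interval from -2.25 to 1.71. It was above 0 when post-ovulatory replicate 2 (0.47) or early luteal replicate 2 (0.24) was left out and with sample quality weights (0.26, limma voom), and -1.59 without early luteal replicate 1 (edgeR, unadjusted p = 0.0668).

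PTGDS did not separate the stages, and its 3 lowest libraries were also the 3 lowest in macrophage markers. The same 3 libraries were the lowest in T and NK cell markers and in red blood cell markers. The summed level of 9 macrophage markers was 215, 199 and 104 CPM in post-ovulatory replicates 1, 2 and 3. In early luteal replicates it was 204, 75.1 and 81.4 CPM, and CD14 was at 0 in early luteal replicate 2 alone. T and NK cell markers summed to 54.1, 65.2 and 33.0 CPM in post-ovulatory and 82.5, 19.5 and 20.4 CPM in early luteal replicates. Red blood cell markers summed to 94.1, 120 and 1.02 CPM in post-ovulatory and 152, 50.4 and 52.7 CPM in early luteal replicates. The 3 genes whose centred log2 CPM was closest to that of PTGDS over the 6 libraries were VSIG4 (root mean square difference 0.33), CSF1R (0.38) and SLA-DMB (0.39). CSF1R is on the macrophage marker list, and PTGDS itself ranged over 3.84. CSF1R stood at 22.3, 36.6 and 14.1 CPM in post-ovulatory libraries and 31.3, 3.12 and 10.4 CPM in early luteal replicates 1, 2 and 3. The part of macrophages or of these other cells in the PTGDS levels was not tested.

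PTGIS, the prostacyclin synthase, lies on chromosome 17 at 51153151 to 51200515, a span that a RefSeq pseudogene overlaps. It stood at 77.9, 58.4 and 129 CPM in post-ovulatory and at 17.4, 54.1 and 89.4 CPM in early luteal replicates 1, 2 and 3. Early luteal replicate 1 was the lowest by a wide margin and early luteal replicate 3 lay among the post-ovulatory libraries. The means were 88.5 ± 36.7 and 53.6 ± 36.0 CPM (SD, n = 3 each), a difference within the spread (log2 fold change -0.72 ± 0.55, SE; edgeR adjusted p = 0.779). It was -1.33 without early luteal replicate 3 (edgeR, unadjusted p = 0.0472, adjusted p = 0.813) and -0.30 without early luteal replicate 1.

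Smooth muscle, in which prostacyclin synthase is known to be made, was also lowest in early luteal replicate 1. The summed level of 9 smooth muscle markers was 1655 CPM there, against 9549 and 12492 CPM in early luteal replicates 2 and 3 and 3858 to 7290 CPM in post-ovulatory libraries, and none was at 0 in any library. PTGIS was highest in post-ovulatory replicate 3, which had the lowest of the post-ovulatory sums. The part of muscle in the PTGIS levels was not tested.

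CBR1, a carbonyl reductase that can turn prostaglandin E2 into prostaglandin F2 alpha, lies on chromosome 13 at 199617406 to 199622407. It had 6, 1 and 3 counts in post-ovulatory libraries and 3, 28 and 4 counts in early luteal replicates 1, 2 and 3. Of its 45 counts 28 came from early luteal replicate 2 (3.79 CPM), and the other 5 libraries lay at 0.0959 to 0.447 CPM. A RefSeq gene with the synonym CBR3, LOC100622246, lies 10787 bases away, so reads may be split between near copies, and the level of CBR1 is uncertain. The gene with the symbol CBR3 had 32, 11 and 38 counts in post-ovulatory replicates 1, 2 and 3. In early luteal replicates CBR3 had 38, 0 and 14 counts, so it had none where CBR1 was highest. Other genes, such as FAAH, PRXL2B and PTGS1, also had 0 counts in early luteal replicate 2 alone. A split of reads between CBR1 and CBR3 was not tested.

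The genes closest in centred log2 CPM, among 9363 searched, were sought in the same way for the other tested members. For SLCO2A1 they were CRABP2 (root mean square difference 0.44), SYNPO (0.51) and SULF2 (0.53), where SLCO2A1 itself ranged over 4.41. CRABP2 stood at 13.3, 35.0 and 7.13 CPM in post-ovulatory libraries and 8.37, 1.22 and 2.86 CPM in early luteal replicates, so its stages overlapped. SYNPO did not overlap, at 11.5, 23.1 and 13.7 CPM against 8.50, 1.76 and 4.72 CPM, and neither did SULF2, at 134, 153 and 68.1 CPM against 56.2, 17.2 and 34.8 CPM. For PTGES2 they were SNX19 (0.07), JMJD6 (0.16) and GPC1 (0.17), where PTGES2 ranged over 3.45, and for HPGD ANKRD44 (0.26), SEMA3D (0.33) and RNF128 (0.43), where HPGD ranged over 2.37. They were FGD2, MMP11 and CIITA for PTGS1 (0.49 to 0.53, range 5.47), and GABBR2, NKTR and ADAMTS5 for PTGS2 (0.28 to 0.34, range 2.26). For PTGES they were TAX1BP1, PIK3CA and HLTF (0.11 to 0.15, range 2.01), each highest in early luteal replicate 2 as PTGES was, and for PTGIS PGF, CCDC136 and SYBU (0.33 to 0.44, range 2.89), each lowest in early luteal replicate 1. All of these measures rest on 6 libraries and are descriptions without a test.

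The lists of other eicosanoid pathway genes held 64 symbols, some of them older names of genes also listed under a newer name. Of the 64 symbols, 54 had a row and 40 were tested. Of these, 0 passed in edgeR after adjustment over all genes. In edgeR 1 of the 40, GSTM3, had an unadjusted p under 0.05, where 7.11% of all genes did. DESeq2 called 0 of the 39 that it gave an adjusted p, and limma voom with sample quality weights called 0 of the 40. By estimate 27 of the 40 were lower, where 51.8% of all genes were, with a median log2 fold change of -0.21 against -0.03 over all genes. The stages did not overlap in 2 of the 40, 1 in each direction, a share below the 17.2% of all genes.

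Upstream, the list of arachidonic acid release, which holds enzymes and the inhibitor ANXA1, showed no common direction, with 7 of 14 tested genes higher and 7 lower by estimate and a median of 0.02. PLD1, a phospholipase D, stood at 13.6, 34.1 and 17.2 CPM in post-ovulatory libraries and 35.9, 55.4 and 32.6 CPM in early luteal replicates 1, 2 and 3, overlapping through post-ovulatory replicate 2 (log2 fold change 0.94 ± 0.42, SE; edgeR adjusted p = 0.685). PLA2G12A, a secreted phospholipase A2, was the only gene of this list without overlap, at 24.5, 23.0 and 23.8 against 24.7 to 36.9 CPM (edgeR adjusted p = 0.828). Its closest libraries, at 24.5 and 24.7 CPM, came from 329 and 371 counts, and counting error was not computed for this gene. PLAAT3 and PLA2G10, which release fatty acids from phospholipids, had log2 fold changes of 0.72 and 0.28, and ANXA1, the annexin known as an inhibitor of phospholipase A2, one of -0.14 (edgeR adjusted p from 0.779 to 0.946 for the 3). PLA2G4A, the cytosolic phospholipase A2 whose span meets that of PTGS2, stood at 8.49, 12.0 and 11.7 CPM against 12.4, 8.26 and 5.65 CPM.

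Of the other synthases and reductases 9 of 10 tested genes were lower by estimate, against 51.8% of all genes, with a median of -0.32. GSTM3, a glutathione transferase, stood at 13.4, 7.20 and 4.86 CPM in post-ovulatory libraries and 2.38, 3.12 and 4.26 CPM in early luteal replicates 1, 2 and 3, without overlap, as 9.57% of all genes did in that direction (log2 fold change -1.38 ± 0.57, SE; edgeR unadjusted p = 0.0401, adjusted p = 0.685). The closest libraries of GSTM3, at 4.86 and 4.26 CPM, came from 152 and 64 counts, and counting error was not computed for this gene. PTGES3, the cytosolic synthase of prostaglandin E2 and a chaperone partner, had a log2 fold change of -0.36 and AKR1A1, an aldo-keto reductase, one of -0.72 (edgeR adjusted p = 0.824 and 0.717). PTGR2, which reduces the products of HPGD further, and CBR4, a carbonyl reductase, had -0.23 and -0.27 (edgeR adjusted p = 0.880 and 0.845). HPGDS, the other prostaglandin D synthase, had 3 counts in all libraries together, and TBXAS1, the thromboxane synthase, 25 counts.

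Among the receptors 3 of 7 tested genes were higher by estimate and 4 lower, with a median of -0.15. PTGER4, a receptor for prostaglandin E2, stood at 40.1, 29.4 and 49.1 CPM in post-ovulatory libraries and 43.0, 115.8 and 63.7 CPM in early luteal replicates 1, 2 and 3 (log2 fold change 0.90 ± 0.40, SE; edgeR adjusted p = 0.685). PTGDR2, a receptor for prostaglandin D2, and PPARD, a nuclear receptor for fatty acids and their products, had log2 fold changes of -0.77 and -0.20 (edgeR adjusted p = 0.837 and 0.908). PTGFR, the prostaglandin F receptor, overlapped widely at 52.9, 81.8 and 22.8 against 9.66, 54.5 and 50.8 CPM. In the lipoxygenase and leukotriene branch 7 of 9 tested genes were lower by estimate, against 51.8% of all genes, with a median of -0.30. None of the 9 was without overlap, where 17.2% of all genes were. LTA4H, the leukotriene A4 hydrolase, had a log2 fold change of 0.01 ± 0.24 (SE), and ALOX12, a lipoxygenase, one of 1.32 ± 0.79 (edgeR adjusted p = 0.994 and 0.736). EPHX2, a soluble epoxide hydrolase, ALOX5AP, the partner protein of ALOX5, and ALOXE3, an epidermal lipoxygenase, had -0.42, -0.88 and -1.31 (edgeR adjusted p from 0.802 to 0.857). ALOX5AP and ALOXE3 had 0 counts in early luteal replicate 2 alone.

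**Figure D4:**
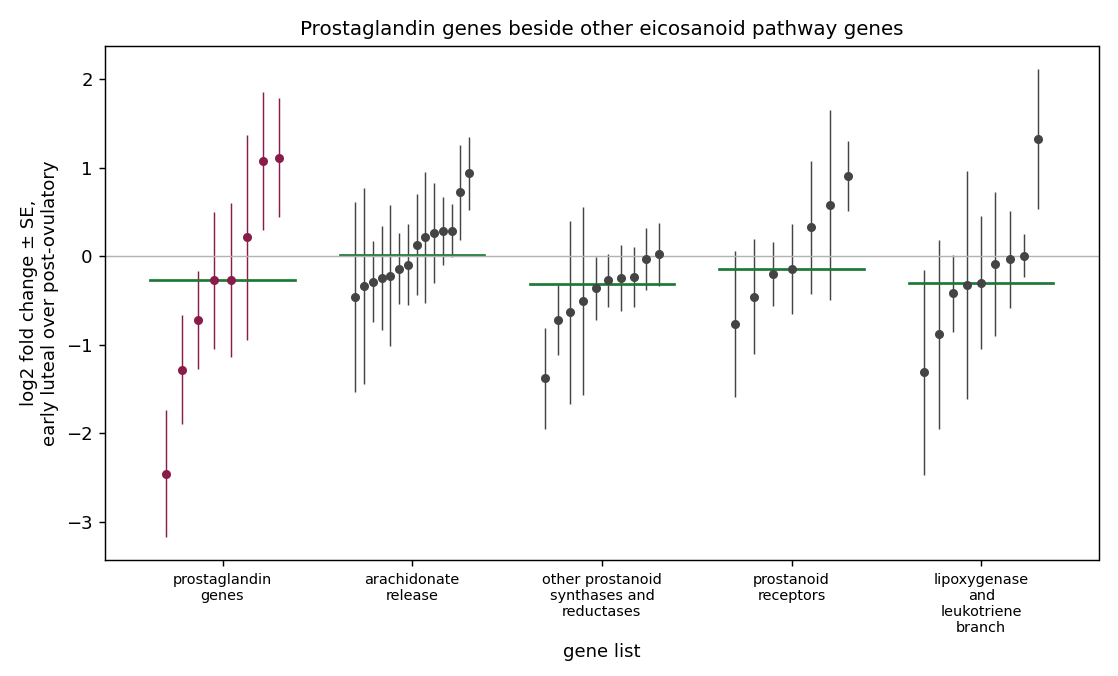
Log2 fold change ± SE (edgeR), early luteal over post-ovulatory, of the 8 tested prostaglandin genes (dark red) and of the tested genes of 4 other lists (grey), sorted within each list, with the median of each list as a green line. The medians are -0.27, 0.02, -0.32, -0.15 and -0.30 from left to right, and SLCO2A1, at -2.46, is the lowest point.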

How the data were processed

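Stranded KAPA libraries of polyadenylated RNA were sequenced as read pairs, per the labels' protocols. STAR, Trim Galore, FastQC 0.11.4 and the genome build Sscrofa11.1 are named, per the submitters' processing notes. How reads were counted, on which strand and with which annotation is not given in the sources used here. The authors deposited whole-number counts per Ensembl gene, without normalization. The table's header lacks a tab, so columns were matched to samples by the order of its words. Symbols came from a table of Ensembl identifiers (15623 of 35670 genes).

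Counts were tested with edgeR 4.0.16 (quasi-likelihood, robust, TMM scaling, filterByExpr; R 4.3.3), two-sided, over 17920 genes, with Benjamini-Hochberg adjustment and a threshold of 0.05. The SE was derived from the F statistic and the log2 fold change, and 95% intervals from the SE and the t quantile. Log2 CPM used a prior count of 2. DESeq2 1.42.0, limma 3.58.1 voom with sample quality weights, other scalings and filters, the replicate block and each library left out were alternatives. The edgeR, DESeq2 and limma steps were tested on simulated data.

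All members are named. Of each pathway list, up to 4 genes with the lowest p and up to 2 with the highest CPM are named or counted; others named there, such as PLA2G4A, HPGDS and TBXAS1, were chosen after their values were seen. For each tested member the 3 closest genes with a symbol and a mean of at least 10 CPM were sought. Members and lists were chosen with earlier results of these data known.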

Additional observations from a re-analysis of the deposited data

How the results depend on the processing

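For the 8 tested genes, 103 fits under alternatives gave 94 with the same direction and side of the threshold, 8 with the opposite sign and 1, SLCO2A1 in DESeq2 (-2.47), newly past the threshold. The opposite signs belonged to PTGS1 with the replicate number as a block (-0.18), to PTGDS with sample quality weights (0.26) and to fits without 1 library, which ran from -0.76 to 0.79 for PTGS1, from -1.04 to 0.18 for PTGS2 and from -1.59 to 0.47 for PTGDS. SLCO2A1 ran from -2.81 to -1.50 and PTGES2 from -1.67 to -0.82 without 1 library, with no change of sign. The number of genes called was 0 in edgeR, 8 with no filter on low counts, 177 in DESeq2 and 9 with sample quality weights (limma voom); the cause was not tested. With the replicate number as a block, edgeR called 0 genes (1043 at an unadjusted p under 0.05, against 1275). Deviations of same-numbered libraries correlated at 0.05, -0.08 and 0.13, and not every library correlated best with its own number, so the numbers were not taken as pairs. Fits without 1 library leave 2 in a stage. Depth limits PTGES, PTGS2 and CBR1 most, with 75, 166 and 45 counts over all libraries.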
